A study of Mus musculus with 6 samples.

Results

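The genes described here are 10 genes of the core circadian clock and its outputs, chosen by symbol from the 40803 genes of a liver RNA-seq count table. They are Clock and Npas2, Per1, Per2, Per3 and Cry1, Nr1d1 and Nr1d2, and Dbp and Tef, and all 10 were found and tested. Liver RNA came from 6 male C57BL/6J mice (C57BL6 in the labels), each giving 1 library. The 3 mice of the rAAV8-sh-scramble group (rAAV8-Scramble in the labels) and the 3 of the rAAV8-sh-Hnf1aos1 group (rAAV8-Hnf1aos1 in the labels) were injected at about 6 weeks of age and examined 4 weeks later, with normal feeding and 12 h of light a day. rAAV8, a recombinant adeno-associated virus with a preference for hepatocytes, was the carrier. In both groups it carried a green fluorescent reporter and a short hairpin RNA driven by the U6 promoter, which is active in many cell types, so every control mouse had also received virus and a hairpin. The hairpin was directed against the lncRNA Hnf1aos1 or had a scrambled sequence. The hour at which each liver was collected is not given in the sources used here, and these genes change over the day, so the values are given per library, always in the order of replicates 1, 2 and 3 of each group.

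The circadian clock of the liver is a transcriptional feedback loop that runs in nearly every hepatocyte. CLOCK, or its paralog NPAS2, pairs with BMAL1 and activates genes through E-box sequences, among them the Per, Cry, Nr1d and Dbp genes. PER and CRY proteins return to the nucleus and repress that activity, whereas the nuclear receptors encoded by Nr1d1 and Nr1d2 (REV-ERB alpha and beta) repress Bmal1, Clock and Npas2 through ROR elements. DBP, TEF and HLF are PAR bZIP transcription factors that bind D-box sequences and carry the rhythm to enzymes of metabolism and detoxification. In mouse liver Bmal1, Clock and Npas2 peak near the change from night to day, Nr1d1 and Dbp during the day, Per1 and Per2 around dusk, and Cry1 late in the night. Per1 in particular is also switched on rapidly by glucocorticoids and by cAMP signaling.

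The starts of 9 of the 10 genes had promoter windows in RefSeq (GRCm38.p6), 13 windows in all, and the 250 bases before each start were searched on both strands. Per2 had no window and was not searched. Per1 is shown because it is the gene that changed, and Cry1, Nr1d1, Per3 and Tef because their windows hold an E-box, its variant or a D-box. Capitals mark the E-box CACGTG, its variant CACGTT, which reads AACGTG where it lies on the other strand, and the D-box TTATGTAA.
Per1, upstream start, chr11:69098699-69098948, + strand: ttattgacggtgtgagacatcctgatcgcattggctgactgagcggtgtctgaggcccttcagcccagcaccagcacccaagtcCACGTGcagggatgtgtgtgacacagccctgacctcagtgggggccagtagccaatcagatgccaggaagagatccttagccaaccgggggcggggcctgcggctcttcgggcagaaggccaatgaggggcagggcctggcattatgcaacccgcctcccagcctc
Per1, downstream start, chr11:69099902-69100151, + strand: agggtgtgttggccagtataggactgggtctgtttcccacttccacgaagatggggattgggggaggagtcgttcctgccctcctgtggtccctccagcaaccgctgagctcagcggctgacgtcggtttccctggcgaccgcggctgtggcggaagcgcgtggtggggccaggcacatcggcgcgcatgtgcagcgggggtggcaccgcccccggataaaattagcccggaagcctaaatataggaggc
Cry1, chr10:85185055-85185304, − strand: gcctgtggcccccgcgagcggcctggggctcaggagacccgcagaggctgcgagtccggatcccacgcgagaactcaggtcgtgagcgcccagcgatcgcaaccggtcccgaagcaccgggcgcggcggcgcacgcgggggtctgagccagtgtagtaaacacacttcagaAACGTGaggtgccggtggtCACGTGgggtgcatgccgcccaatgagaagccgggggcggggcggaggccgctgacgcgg
Nr1d1, chr11:98775378-98775627, − strand: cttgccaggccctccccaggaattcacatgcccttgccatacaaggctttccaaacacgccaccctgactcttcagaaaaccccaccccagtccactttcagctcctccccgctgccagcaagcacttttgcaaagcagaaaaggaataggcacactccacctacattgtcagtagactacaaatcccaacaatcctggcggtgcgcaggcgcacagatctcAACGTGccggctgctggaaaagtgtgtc
Per3, chr4:151044666-151044915, − strand: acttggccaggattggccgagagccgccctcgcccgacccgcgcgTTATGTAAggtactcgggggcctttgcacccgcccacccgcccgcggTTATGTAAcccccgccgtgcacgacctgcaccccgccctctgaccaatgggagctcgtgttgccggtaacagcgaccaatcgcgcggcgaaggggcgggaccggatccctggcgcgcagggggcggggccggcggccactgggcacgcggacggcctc
Tef, downstream start, chr15:81811164-81811413, + strand: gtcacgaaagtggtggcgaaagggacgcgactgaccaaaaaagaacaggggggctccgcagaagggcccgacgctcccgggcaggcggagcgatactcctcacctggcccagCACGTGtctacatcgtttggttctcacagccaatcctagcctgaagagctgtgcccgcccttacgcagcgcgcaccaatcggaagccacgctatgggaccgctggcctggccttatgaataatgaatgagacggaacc

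The E-box stood before the upstream start of Per1, before Cry1 and before both starts of Tef, and 6.02% of all 32851 windows of this length held it. Its variant CACGTT stood before Cry1 and Nr1d1 (3.85% of all windows). Per3 held the D-box TTATGTAA at 2 places, against 0.819% of windows with at least 1. The other form searched, TTACGTAA (0.113% of windows), was in none of them, and neither was the full cAMP response element TGACGTCA (1.55%). Its core TGACG, which the full element contains, stood before both starts of Per1 and before Cry1 (17.8% of windows). The ROR element core AGGTCA was found before Per1, Nr1d2 and Clock (14.0% of windows). The full palindromic glucocorticoid response element was in none of the windows of the 9 genes searched (0.00913% of all), and the AGAACA it contains only before Tef (16.1%). Per2 was not among the 9. Both Per1 windows lie inside the gene as GENCODE draws it (chr11:69095217-69109960), outside its exons except for 1 base of the first. The window before the upstream start of Tef, not printed above, lies with all its 250 bases in exons of Tef as GENCODE draws them. The E-box found there is thus in annotated exon, whereas the printed Tef window holds no exon bases of the gene. These matches describe letters in the windows and not bound sites.

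Hnf1aos1 itself had 512, 491 and 620.3 normalized counts in the scramble group, against 278, 258 and 433 in the knockdown group, without overlap. A normalized count is the raw count divided by the library's size as scaled by edgeR's TMM method, relative to the mean of the 6 sizes. The log2 fold change (always of knockdown relative to scramble) was −0.74 (standard error 0.195; edgeR quasi-likelihood fit, p adjusted by Benjamini-Hochberg over 16327 genes, 0.0625). The targeted RNA thus did not pass the threshold of 0.05 by edgeR, whereas DESeq2 called it (adjusted p = 0.00326). Gene totals ran from 14704746 to 19462398 counts per library. Hepatocyte markers (Alb, Ttr, Apoa1, Cps1 and Tat) were abundant in every library, and 1 of the 5, Tat, was called lower. Over all genes tested 3.23% were called lower and 3.09% higher. The summed level of 5 Kupffer cell markers was 2629 to 3244 normalized counts in the scramble and 3385 to 4269 in the knockdown libraries, with 5 of 5 fold changes above 0 and 2 called higher. The sum of 5 skeletal muscle markers was 827 to 3095 in the scramble and 393 to 854 in the knockdown libraries, with 0 of 5 called (2 at an unadjusted p under 0.05), and was highest in scramble replicate 2. The sum of 5 bile duct markers was 688, 578 and 654 normalized counts in the scramble group, against 2542, 916 and 833 in the knockdown group. It did not overlap, and knockdown replicate 1 stood far above the rest through Spp1 (2161 normalized counts there). The summed endothelial, stellate and leukocyte markers overlapped between the groups. Endothelial, stellate, bile duct and leukocyte markers had 0 called of the 17 tested (1 at an unadjusted p under 0.05). Of all genes 6.32% were called, and 23.4% had an unadjusted p under 0.05 by edgeR. The only marker at 0 in a library was S100a9, in scramble replicate 3. The part of these cells in the values of the clock genes was not tested, and in bulk RNA fewer cells of a type cannot be told apart from less RNA per cell.

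Of the 10 clock genes, Per1 was the 1 called at an adjusted p under 0.05, and it fell to 28.7% of the scramble level. Over all genes tested 6.32% were called, 3.23% lower and 3.09% higher, so 1 of 10 is close to the background. The other 9 genes were not called, and 3 of the 10 had an unadjusted p under 0.05, as did 23.4% of all genes. DESeq2 also called Per1 alone of the 10, where it called 7.4% of all genes, 3.59% lower and 3.82% higher. All 10 log2 fold changes were below 0, from −1.80 to −0.05, with a median of −0.26, where the median of all genes tested was −0.0004. When library sizes were taken from the spike-ins in place of TMM, the median of all genes moved up by 0.20 and 5 of the 10 fold changes (Clock, Per2, Nr1d1, Nr1d2 and Dbp) lay above 0. In 3 of the 10 genes, Per1, Cry1 and Clock, the knockdown libraries all lay below the scramble libraries. Of all genes tested 28.9% did not overlap between the groups, 13.7% with the knockdown libraries lower and 15.2% with them higher.

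**Figure D1:**
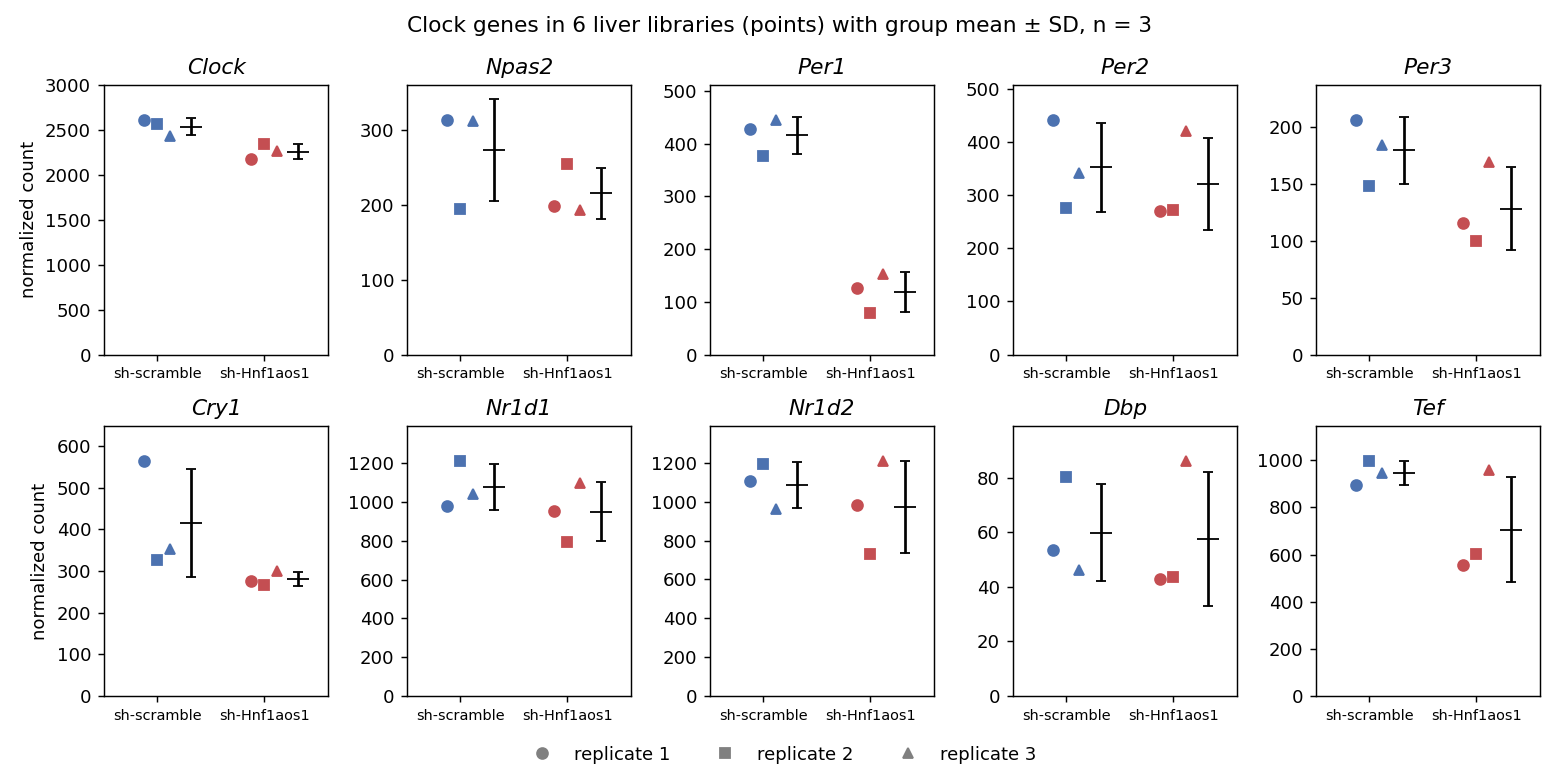
Normalized counts (vertical axes, each from 0) of the 10 clock genes in the 3 rAAV8-sh-scramble (blue) and 3 rAAV8-sh-Hnf1aos1 (red) libraries, with the marker shape giving the replicate and the bar the group mean ± SD (n = 3). Per1 lies at 376 to 444 in the scramble and 77.9 to 153 in the knockdown libraries, while Dbp overlaps almost fully.

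Clock and Npas2 encode the interchangeable partners of BMAL1. Clock (chr5:76209868-76304792 of GRCm38) had 2610.1, 2569.6 and 2437 normalized counts in the scramble group, against 2176, 2341 and 2265 in the knockdown group. It was the steadiest of the 10, and although the groups did not overlap the fold change was small, −0.17 on the log2 scale (95% interval −0.35 to 0.02, adjusted p = 0.259 from edgeR's test). With sizes from the spike-ins its log2 fold change was 0.03. Npas2 (chr1:39193731-39363236) had 313, 194 and 312 normalized counts in the scramble group, against 198, 255 and 193 in the knockdown group. Scramble replicate 2 stood at the level of the knockdown libraries, the groups overlapped, and the log2 fold change was −0.34 (95% interval −0.77 to 0.08, adjusted p = 0.311 from edgeR's test).

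Per1, Per2 and Per3 encode the period proteins, and Cry1 a cryptochrome, which together form the repressor arm of the loop. Per1 had 427, 376 and 444 normalized counts in the scramble group, against 127, 77.9 and 153 in the knockdown group. The highest knockdown library was thus well under the lowest scramble library. The scramble mean was 416 ± 35.2 (SD, n = 3), the knockdown mean 119 ± 38.1 (SD, n = 3), and the log2 fold change was −1.80 (standard error 0.206, 95% interval −2.26 to −1.34, adjusted p = 0.00294 from edgeR's test). Per1 was called in each of the 7 other tools, scalings and filters, where its log2 fold change ran from −1.87 to −1.59, and in all 6 fits without 1 library, from −2.02 to −1.57, with an adjusted p of 2.33e-05 to 0.0318.

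Per2 (chr1:91415982-91459324) had 441, 276 and 341 normalized counts in the scramble group, against 269.9, 273 and 420.3 in the knockdown group. Knockdown replicate 3 lay above scramble replicates 2 and 3, so the groups overlapped. The log2 fold change was −0.14 (95% interval −0.65 to 0.38, adjusted p = 0.767 from edgeR's test). The lower end of that interval lies above the whole interval of Per1. Per3 (chr4:151003652-151044665), which had 206, 148 and 185 normalized counts in the scramble group, against 115, 99.8 and 169 in the knockdown group, overlapped as well through knockdown replicate 3. Its log2 fold change was −0.49 (95% interval −0.94 to −0.04, adjusted p = 0.179 from edgeR's test), and without knockdown replicate 3 it was called at −0.74 (adjusted p = 0.0181 from edgeR's test). Cry1 (chr10:85131700-85185064) had 563, 327 and 353 normalized counts in the scramble group, against 277, 265 and 299 in the knockdown group. The groups did not overlap, but scramble replicate 1 stood far above the other scramble libraries. The log2 fold change was −0.57 (95% interval −1.01 to −0.13, adjusted p = 0.121 from edgeR's test) and −0.28 without scramble replicate 1. Cry1 was called by edgeR when low counts were not filtered (adjusted p = 0.0247), whereas DESeq2 gave an adjusted p of 0.0585.

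Nr1d1 and Nr1d2 encode the REV-ERB receptors, which bind heme and silence Bmal1. Nr1d1 (chr11:98767932-98775333) had 982, 1209.6 and 1040.4 normalized counts in the scramble group, against 956, 794 and 1099 in the knockdown group. Knockdown replicate 3 exceeded scramble replicates 1 and 3, and the log2 fold change was −0.18 (95% interval −0.46 to 0.09, adjusted p = 0.412 from edgeR's test). Exons of Thra on the opposite strand cover 8.55% of the exon bases of Nr1d1, so reads from that gene cannot be told apart if strands were not separated in the counting. Nr1d2 (chr14:18204054-18239127) had 1109, 1194 and 961 normalized counts in the scramble group, against 983, 734 and 1209 in the knockdown group. The highest and the lowest of its 6 values were both in the knockdown group, and the log2 fold change was −0.16 (95% interval −0.55 to 0.23, adjusted p = 0.623 from edgeR's test).

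Dbp and Tef encode the PAR bZIP factors that carry the rhythm to their targets. Dbp (chr7:45705088-45710203) had 53.4, 80.1 and 46.2 normalized counts in the scramble group, against 42.9, 43.7 and 86.0 in the knockdown group. In each group 1 library stood well above the others, scramble replicate 2 and knockdown replicate 3. The log2 fold change was −0.05 with the widest interval of the 10 genes (−0.75 to 0.65, adjusted p = 0.939 from edgeR's test), and it ran from −0.46 to 0.21 as 1 library at a time was left out. The sign of its difference therefore depended on single libraries, and exons of Sphk2 on the opposite strand cover 18.0% of its exon bases. Tef (chr15:81802421-81826863) had 894, 996 and 947 normalized counts in the scramble group, against 555, 602 and 961 in the knockdown group. Knockdown replicates 1 and 2 lay far below the scramble libraries and knockdown replicate 3 among them. The log2 fold change was −0.42 (95% interval −0.88 to 0.04, adjusted p = 0.253 from edgeR's test). Without knockdown replicate 3 it was −0.71 and Tef was called (adjusted p = 0.000748 from edgeR's test), so that 3 of the 10 genes, Per1, Per3 and Tef, were called in that fit.

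**Figure D2:**
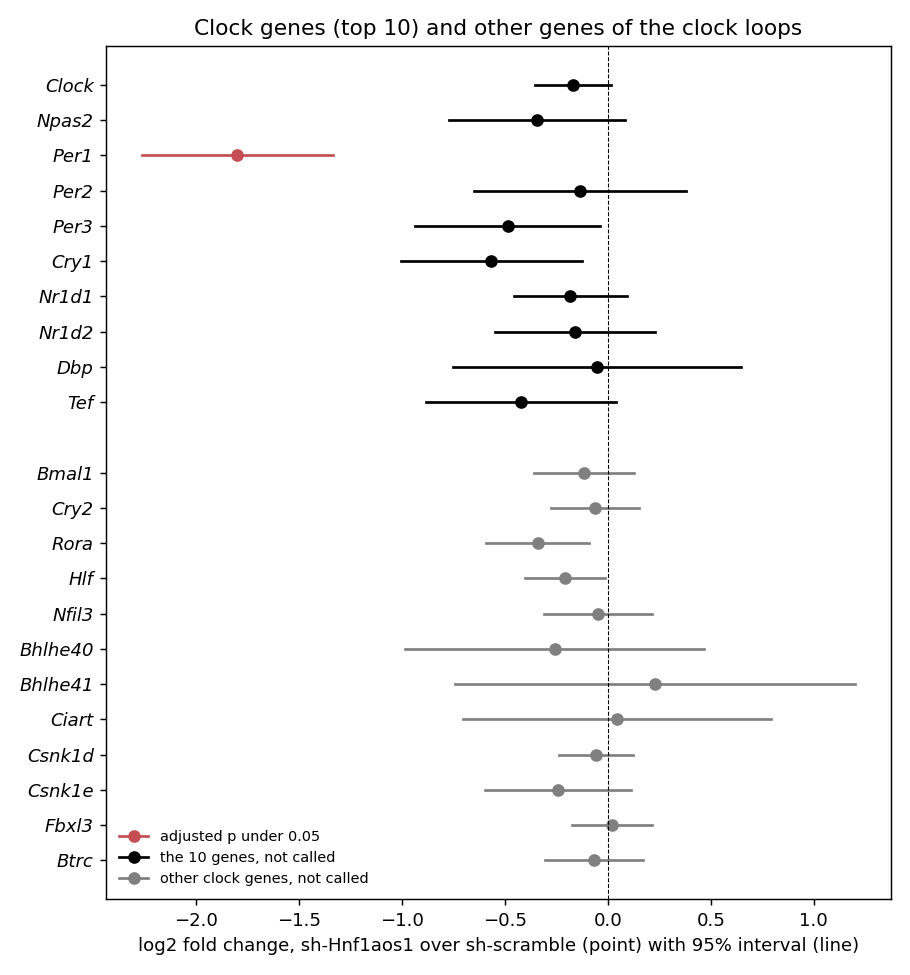
Log2 fold change, rAAV8-sh-Hnf1aos1 over rAAV8-sh-scramble (horizontal axis), from edgeR's test with its 95% interval for the 10 clock genes (top) and 12 of the 13 other genes of the clock (bottom; 1 is not reported here), with red for an adjusted p under 0.05. Per1 at −1.80 stands alone in red, and among the other 9 the intervals of Per3 and Cry1 also end below 0 without a call.

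Per1 was set against the other clock genes by ratios of raw counts within a library, which do not depend on how libraries are scaled. This comparison was added after the values had been seen, and Per1 was chosen because it was the 1 gene called. The ratios thus describe its fall free of scaling and are no separate support for it. The log2 ratio of Per1 to each of the other 9 genes was lower in all 3 knockdown libraries than in all 3 scramble libraries, with differences of group means from −1.76 (over Dbp) to −1.33 (over Cry1). For Per1 over Per2, the log2 ratios were −0.05, 0.45 and 0.38 in the scramble group, against −1.09, −1.81 and −1.46 in the knockdown group. Each of the 9 exact two-sided permutation tests gave p = 0.1, the smallest that 3 against 3 libraries allow (0.1 after Benjamini-Hochberg adjustment over the 9), and the 9 ratios share the values of Per1.

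**Figure D3:**
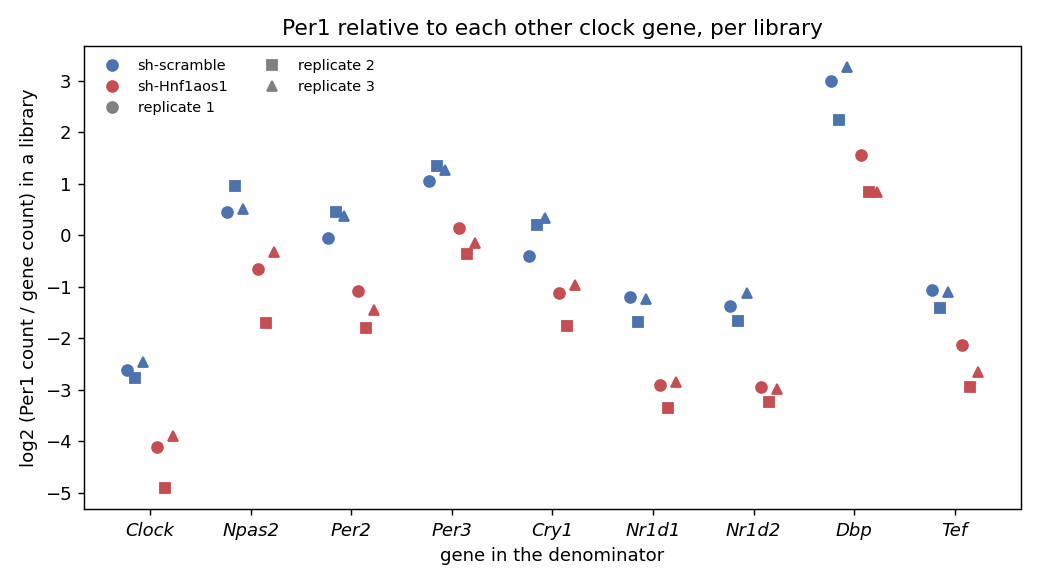
Log2 ratio of the raw count of Per1 to that of each other clock gene (vertical axis) in every library, in blue for rAAV8-sh-scramble and red for rAAV8-sh-Hnf1aos1. For all 9 denominators the red points lie below the blue points.

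The ratio of the remaining Per genes to each other did not overlap between the groups either. Of single genes tested 28.9% did not overlap, and the share of gene pairs was not computed. Per2 and Per3 each overlapped on their own, and neither was called. The log2 ratio of Per2 to Per3 counts was 1.10, 0.89 and 0.88 in the scramble group, against 1.23, 1.45 and 1.31 in the knockdown group. The knockdown libraries were all higher, by 0.37 in the group means (0.96 ± 0.12 and 1.33 ± 0.11, SD, n = 3; p = 0.1 by a two-sided exact permutation test, the smallest possible). Ratios between genes that peak at opposite times gave no such separation. The log2 ratio of Dbp to Npas2 counts was −2.55, −1.28 and −2.76 in the scramble group, against −2.21, −2.54 and −1.16 in the knockdown group (p = 0.5 by a two-sided exact permutation test). The log2 ratio of Nr1d1 to Bmal1 counts was 0.18, 0.72 and 0.22 in the scramble group, against 0.24, −0.05 and 0.71 in the knockdown group (p = 0.9 by a two-sided exact permutation test). In both ratios scramble replicate 2 and knockdown replicate 3 were the highest libraries of their groups, and the sign of the difference between the groups turned when single libraries were left out.

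Libraries of the same group differed more in these genes than in most genes of like abundance. The SD of log2 normalized counts within groups was above the median of genes within 2-fold of the same mean level in 9 of the 10, by 1.73 times for Nr1d1 to 2.62 times for Tef, and at the 85.3 to 95.4 percentile of those genes. Clock was the exception, with an SD of 0.052 against a median of 0.114. Dbp had the largest SD, 0.494, where counting reads would alone give 0.188 at 42 to 95 raw counts per library. For the other 8 genes with a high spread, the SD was 0.199 to 0.365, where counting alone would give 0.0449 to 0.117. Of the 13 other clock genes, 6 were above their median and 7 were not.

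**Figure D4:**
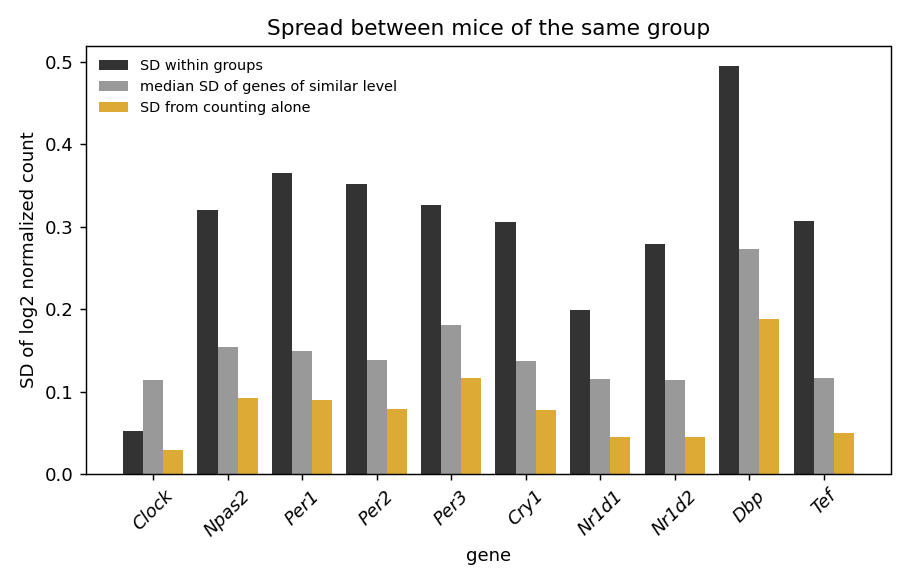
SD of log2 normalized counts within groups (dark bars), the median of that SD over genes within 2-fold of the same mean level (grey) and the SD that counting alone gives (yellow), for the 10 clock genes. The dark bar is the tallest for all genes but Clock.

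The libraries that stood apart differed between genes in an ordered way. Scramble replicate 2 had the highest value of its group for Nr1d1, Nr1d2, Dbp and Tef and the lowest for Npas2, Per1, Per2, Per3 and Cry1. Bmal1, the partner of CLOCK, was also lowest of the scramble libraries there, with 733 normalized counts against 869 and 894. Knockdown replicate 3 had the highest value of its group for 8 of the 10 genes, the 4 just named with high values in scramble replicate 2 together with Per1, Per2, Per3 and Cry1. It was the lowest of its group for Npas2, and for Bmal1 with 671 normalized counts against 809 and 825. Knockdown replicate 2 had the lowest Per1, Per3, Cry1, Nr1d1 and Nr1d2 of all 6 libraries. The Per genes were thus low in scramble replicate 2 and high in knockdown replicate 3, whereas Nr1d1, Nr1d2, Dbp and Tef were high in both.

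**Figure D5:**
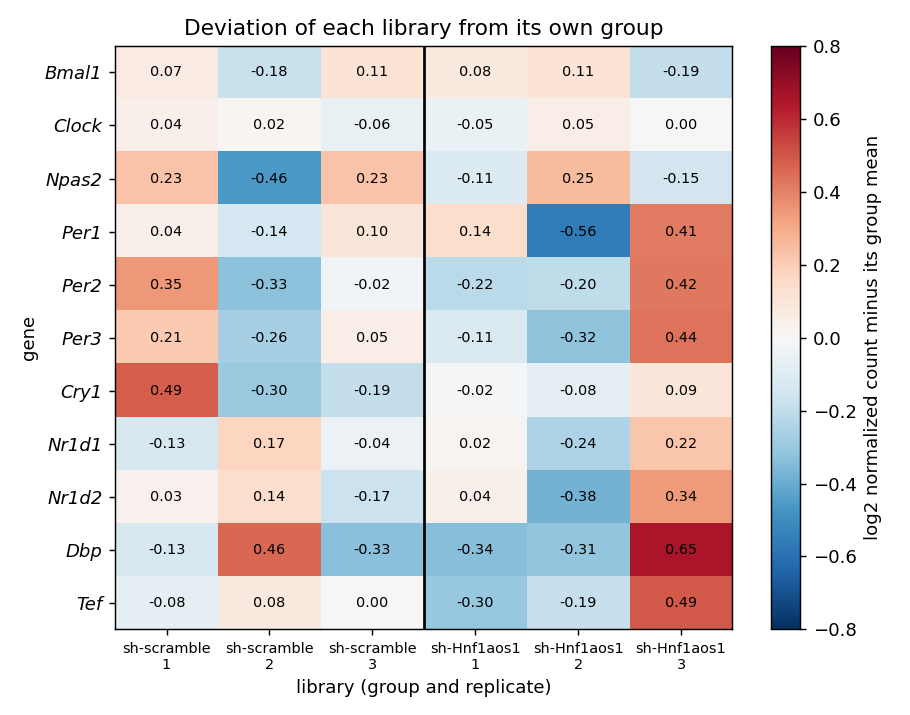
Log2 normalized count of each library minus the mean of its own group (colour and printed value) for Bmal1 and the 10 clock genes, with the 3 rAAV8-sh-scramble libraries left and the 3 rAAV8-sh-Hnf1aos1 libraries right of the line. Dbp deviates by 0.46 in scramble replicate 2 and by 0.65 in knockdown replicate 3, where Bmal1 deviates by −0.18 and −0.19.

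Levels were compared between genes on the deposited TPM scale, which is per length. In the scramble group the means ran from 47.1 ± 4.64 TPM for Nr1d1 and 32.6 ± 0.488 for Clock, through 18.2 ± 1.48 for Nr1d2, 17.6 ± 0.994 for Tef and 13.6 ± 4.13 for Cry1, to 8.39 ± 2.24 for Npas2, 7.53 ± 1.78 for Per2 and 6.33 ± 0.693 for Per1, and 2.84 ± 0.784 for Dbp and 2.56 ± 0.441 for Per3 (SD, n = 3 each). Nr1d1 and Clock did not overlap with each other or with the rest, whereas Nr1d2, Tef and Cry1 overlapped, as did Npas2, Per2 and Per1, and Dbp and Per3. In the knockdown group Per1 was at 1.72 ± 0.559 TPM (SD, n = 3), with libraries from 1.10 to 2.17, and overlapped Per3 (1.73 ± 0.477, SD, n = 3) and Dbp (2.59 ± 1.07, SD, n = 3) in place of Per2 (6.48 ± 1.65, SD, n = 3).

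The rest of the clock was read from 13 further genes of its loops and of clock protein turnover. By edgeR's test 0 of the 13 were called (3 at an unadjusted p under 0.05), and DESeq2 also called 0 (1 at an unadjusted p under 0.05). Of all genes edgeR called 6.32% and DESeq2 7.4%, and 23.4% had an unadjusted p under 0.05 by edgeR. Their median log2 fold change was −0.07, from −0.34 to 0.23. The lowest of these fold changes was that of Rora, a nuclear receptor that activates Bmal1, whose scramble mean was 4094 ± 249.8 and knockdown mean 3232 ± 470.4 normalized counts (SD, n = 3 each; log2 fold change −0.34, adjusted p = 0.0986 from edgeR's test). Rora was called with library totals alone, without a filter on low counts and without knockdown replicate 3. The values of Hlf, the third PAR bZIP factor, were 1104, 1183 and 1066 normalized counts in the scramble group, against 900.2, 1008 and 993 in the knockdown group, at −0.21 (adjusted p = 0.183 from edgeR's test). For Bmal1 itself the log2 fold change was −0.12 (95% interval −0.36 to 0.13, adjusted p = 0.566 from edgeR's test) and for Cry2 −0.06 (95% interval −0.28 to 0.15, adjusted p = 0.746 from edgeR's test).

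Among 13 liver genes known for a daily rhythm, 2 were called, both lower (15.4% of the 13, against 6.32% of all genes). Usp2, a ubiquitin protease with a strong rhythm in liver, had 109, 119.6 and 104 normalized counts in the scramble group, against 56.3, 66.5 and 58.9 in the knockdown group, and fell without overlap (log2 fold change −0.87, adjusted p = 0.0164 from edgeR's test). Nr1i3, the xenobiotic receptor CAR and a target of PAR bZIP factors, fell from a scramble mean of 608 ± 20.9 to a knockdown mean of 392.5 ± 73.4 (SD, n = 3 each), a log2 fold change of −0.63 (adjusted p = 0.0172 from edgeR's test). Neither was called in the fits without scramble replicate 2 or 3. Other PAR bZIP targets in the list were not called. Por was at −0.24 (adjusted p = 0.108 by edgeR) and Cyp2a5 at −0.14 (adjusted p = 0.729 by edgeR) as log2 fold changes. Alas1 was at 0.46 (adjusted p = 0.403 by edgeR) and Cyp7a1 at 0.29 (adjusted p = 0.770 by edgeR).

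Signals from outside the hepatocyte that reset Per1 and Per2 were read from 3 short lists, with all values on the log2 fold change scale. Of 5 glucocorticoid receptor targets, 1 was called (20% of the 5, against 6.32% of all genes). Tsc22d3, which encodes the anti-inflammatory protein GILZ, fell by 1.23, from 1838, 1635 and 2062 normalized counts to 798, 681 and 886, without overlap (adjusted p = 0.000806 from edgeR's test). The kinase gene Sgk1 was at −0.93 (adjusted p = 0.0656 from edgeR's test; 0.000185 from DESeq2) and Fkbp5, which encodes a co-chaperone of the receptor, at 0.42 with an opposite sign (adjusted p = 0.0517 from edgeR's test). Of 7 heat shock and cold-induced genes, 1 was called (14.3% of the 7, against 6.32% of all genes). It was the chaperone gene Hsp90aa1, higher at 0.79 (adjusted p = 0.0493 from edgeR's test). Its call was lost in 5 of the 6 fits without 1 library, all but the fit without scramble replicate 1. Hspa1a, of the same list, was at −1.15 (adjusted p = 0.0914 from edgeR's test) and is uncertain, since it has a near-identical copy, Hspa1b, and the split of reads between them was not tested. Among genes that follow feeding and fasting, Pdk4, a kinase that spares glucose in fasting, fell by 1.71 (adjusted p = 0.000209 from edgeR's test). Of the same list, Pck1, G6pc, Igfbp1, Cpt1a and Angptl4 were not called, with log2 fold changes of −1.05 to −0.03. The part of these signals in the fall of Per1 was not tested.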

How the data were processed

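The authors used Trimmomatic, STAR (GRCm38) and featureCounts, keeping reads that map once and lie on exons; the submitters' processing notes name GRCm39 instead, and the strand setting and annotation release are not given in the sources used here. The methods describe a stranded poly(A) kit, the labels depletion of ribosomal RNA. The deposited raw counts are whole numbers. The deposited TPM values are per length and scaled to each library. The deposited normalized counts are a signal, the raw counts divided by 1 factor per library. The table of the authors' own comparison (fold changes and p-values) was not used.

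All tests used the raw counts without the 92 spike-in rows (40803 genes; R 4.3.3, edgeR 4.0.16): TMM, filterByExpr, robust glmQLFit and glmQLFTest with group as the only term, called at a Benjamini-Hochberg adjusted p under 0.05 over 16327 genes. Standard errors are the log2 fold change over the square root of F. DESeq2 1.42.0, limma 3.58.1 (voom), 3 other scalings, 2 other filters, the replicate number as a block and fits without 1 library were alternatives, and the code was tested on simulated data. Spread and permutation tests of single genes used log2 with 0.5 added. Figures used matplotlib 3.10.9.

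The 10 genes and all lists were chosen with earlier results of these data known. The genes named are the 10, Hnf1aos1, every called gene of a list and the 2 with the smallest p in each, the other clock genes by value. Por, Alas1, Cyp2a5, Cyp7a1 and the uncalled feeding genes were named after their values were seen. Some results on genes of this rule are not reported here. Arntl is listed as Bmal1. Gene positions are GENCODE M21 on GRCm38. At gene totals of 14704746 to 19462398, counting alone would give a smaller SD than was observed in each of the 10 genes.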

Additional observations from a re-analysis of the deposited data

How the results depend on the processing

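Per1 was called under every alternative run, and over the other tools, scalings and filters 1 of the 10 clock genes was called except without a filter on low counts, where 2 were (Per1 and Cry1). With library sizes from the spike-ins the log2 fold changes that turned above 0 were 0.0338 for Clock, 0.0748 for Per2, 0.0176 for Nr1d1, 0.0437 for Nr1d2 and 0.15 for Dbp, none of them called. That scaling called 3394 genes in the whole table, and no filter called 1902, against 1032. Without 1 library the whole table had 103 (without scramble replicate 3) to 1881 calls (without knockdown replicate 3), the 10 clock genes 1 to 3, the other clock genes 0 to 1, the liver output genes 0 to 4 (5 at an unadjusted p under 0.05 in each fit with 0), the glucocorticoid targets 1 to 3, the temperature genes 0 to 2 (2 or 3 at an unadjusted p under 0.05 in each fit with 0) and the feeding genes 1 to 3. In those fits the log2 fold change ran from −0.38 to 0.0623 for Per2, from −0.34 to 0.0137 for Nr1d2 and from −0.46 to 0.21 for Dbp, and the difference in log2 ratio from −0.18 to 0.68 for Dbp over Npas2 and from −0.28 to 0.10 for Nr1d1 over Bmal1. Of the other clock genes, 1 (Rora) was called with library totals alone and 1 without a filter. Glucocorticoid targets called were 2 with DESeq2, with voom and without a filter, and 3 with the spike-ins; temperature genes were 0 with DESeq2's size factors, with library totals and with a mean of at least 50 counts (3, 3 and 2 at an unadjusted p under 0.05), and 3 with the spike-ins. The causes were not tested.

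The labels number the replicates 1 to 3 in both groups without saying that a number marks a shared litter or day, and libraries of the same number did not deviate together (correlations of −0.0226, 0.0231 and 0.00321 over genes), so they were not taken as pairs. With the replicate block 1 of the 10 clock genes was called, again Per1, with 4 liver output genes, 2 glucocorticoid targets and 2 temperature genes. Counting error was largest for Dbp among the 10 genes, at 42 to 95 counts per library, and larger for Ciart and Bhlhe41, at 12 to 41. With 3 libraries a group and an unknown hour of collection, a group difference smaller than the intervals given could not be seen.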
